A study of Mus musculus with 8 samples.

Results

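The comparison described here sets primordial germ cells (PGCs) made in culture from wild-type (wt) mouse embryonic stem cells (ESCs), sorted on day 12 of differentiation, against the undifferentiated wt ESCs. Its members were chosen by their sample titles: 1 array of wt ESCs and 1 array of wt day-12 PGCs, which make 2 of the 8 arrays of the series. The other 6 arrays hold wt PGCs of day 15, Gcnf-deficient (Gcnf-/-) ESCs, Gcnf-/- PGCs of days 12 and 15, and 2 samples of epiblast stem cells (EpiSCs), which are derived from the embryo after implantation and are pluripotent. RNA was hybridised to Illumina MouseRef-8 v2 bead arrays, and the strain is labelled C57BL/6 throughout.

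Both wt groups carried intact Gcnf (Nr6a1), the orphan nuclear receptor gene whose loss the series was built to study, and an Oct4-GFP reporter, a green fluorescent protein driven by the Oct4 promoter without its proximal enhancer, which is active in germ cells. The ESCs were grown with leukaemia inhibitory factor (LIF) on irradiated mouse embryonic fibroblasts. For differentiation the cells were plated on gelatin without feeders or LIF, and green cells were collected by flow sorting. The methods do not say whether the ESC sample was sorted. They name both male and female wt ESC lines and a female Gcnf-/- line. Which of the wt lines gave each wt array is not stated in those methods or the labels. Every sample, the ESCs included, carries the cell type label PGC.

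PGCs are the embryonic founders of sperm and eggs. In the mouse they are set aside from the epiblast under BMP signalling, repress the somatic programme, keep or regain the pluripotency factors, and then switch on genes of the gonadal germ cell and, later, of meiosis. Dppa3 (Stella) and Ifitm family genes mark the cells early, Dazl and Ddx4 mark them once they reach the gonad, and Emb encodes embigin, a surface glycoprotein. Cultured ESCs share much of the pluripotency network of PGCs.

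With 1 array on each side no test of the difference was possible, and differences are given as sizes. A value is the normalized signal of a probe on the log2 scale, in which 1 unit is a doubling, and a probe was taken as detected at a detection p under 0.01. Where a gene was below detection on one side, its difference is given as a lower bound, the bright signal over the higher of the dim array's lowest detected signal and the dim probe's own value, and written "at least". The EpiSC pair, the only condition with 2 arrays, gave the only measure of spread, and since the methods speak of biological or technical duplicates it may be technical alone. Their probes detected on both arrays differed with an SD of 0.26 log2 units (9638 probes). Median raw signals ran from 138 to 189 over the 8 arrays, with 189 in wt ESCs and 163 in wt day-12 PGCs. The share of detected probes ran from 38.7% to 43.9%, with 40.6% and 40.0% in these 2 arrays. The lowest detected signal was 5.78 in wt ESCs and 5.86 in wt day-12 PGCs.

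Of 25697 probes, 11264 were detected on at least 1 of the 2 arrays. Of these, 371 probes (3.29%) were over 4-fold higher and 315 (2.8%) over 4-fold lower in wt day-12 PGCs than in wt ESCs. The same limit was passed by 0.0859% and 0.00954% of the probes in the EpiSC pair, 10 of 10482. At a 2-fold limit 1476 probes (13.1%) were higher and 1346 (11.9%) lower, against 1.08% and 0.811% in the EpiSC pair. Counted with 1 probe for each of 7827 genes, 267 genes (3.41%) were over 4-fold higher and 223 (2.85%) over 4-fold lower, with a median difference of -0.02 over all genes. On the 2-fold limit 1055 genes (13.5%) were higher and 853 (10.9%) lower. The counts of list members given below for the wt pair stand beside these shares. Counts take the signals as they stand, and a count by the bound, in which a signal below detection is set to its bound, follows where it differs. By the bound 810 genes (10.35%) were over 2-fold higher and 583 (7.45%) lower.

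Many of these differences had only 1 measured side. Of the 371 higher probes, 120 were detected on both arrays and 251 on the day-12 array alone, and 157 stayed over 4-fold when the dim side was set to its bound. Of the 315 lower probes, 66 were detected on both arrays and 249 on the ESC array alone, and 131 stayed over 4-fold by the bound. Genes nearest to the limit were Lypla1 at 2.006 just inside and Hcn2 at 1.997 just outside on the higher side, and Paqr9 at -2.001 just inside and Ddah1 at -1.995 just outside on the lower side. The scatter of signals shows most germ-cell genes above the diagonal and most fibroblast genes below it.

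**Figure D1:**
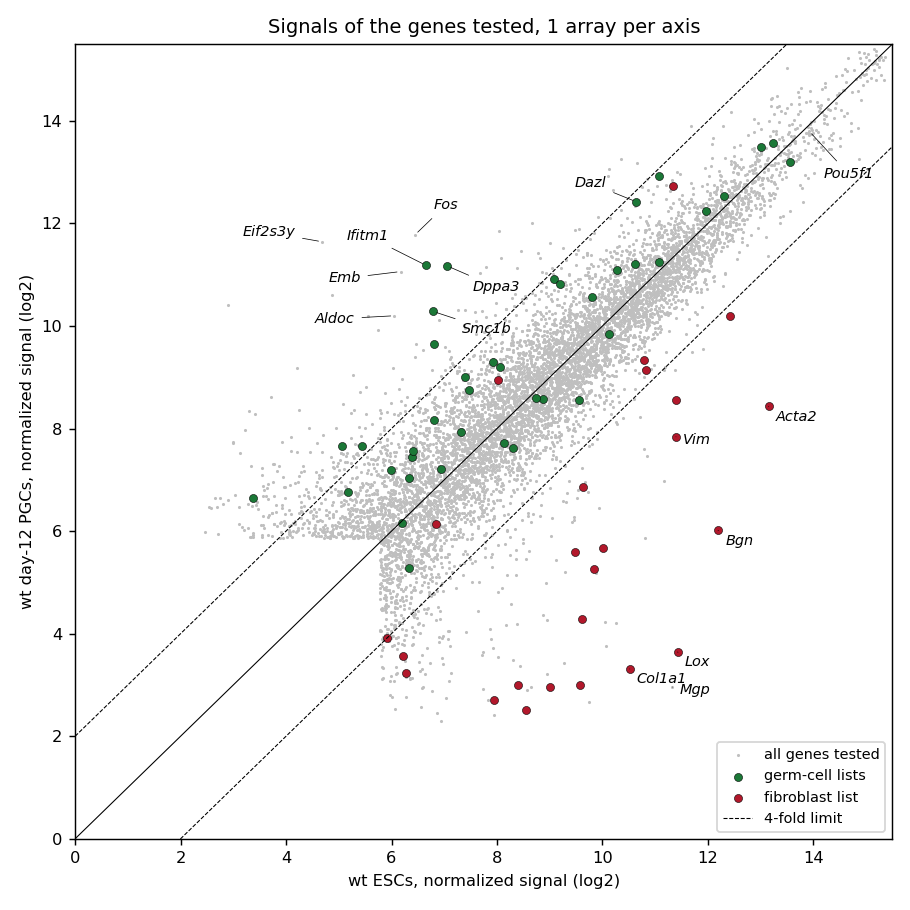
Normalized log2 signal of the 7827 genes tested in wt ESCs (x axis) and wt day-12 PGCs (y axis), 1 array each; dashed lines mark 4-fold. Green points are genes of the PGC specification, gonadal germ cell and meiosis lists and red points the fibroblast list, of which 20 members lie below the lower line.

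Of the markers of the early germ cell, Dppa3 and Ifitm1 stood far above the wt ESC level, and others, given below, differed less. Dppa3, a maternal-effect gene and the marker of nascent PGCs, gave 7.06 in wt ESCs and 11.17 in wt day-12 PGCs, a 17.3-fold difference. On the other ESC and PGC arrays it gave 11.38 in wt day-15 PGCs and 8.15, 10.28 and 10.52 in Gcnf-/- ESCs, day-12 and day-15 PGCs. The 4 PGC arrays thus lay above both ESC arrays for Dppa3, and the EpiSC arrays were below detection. Ifitm1, an interferon-induced membrane protein gene expressed in nascent PGCs, gave 6.65 in wt ESCs and 11.19 in wt day-12 PGCs, 23.2-fold higher. Its signals of 8.61 in Gcnf-/- ESCs and 10.91 in Gcnf-/- day-12 PGCs differed in the same direction.

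Dazl, which encodes an RNA-binding protein needed for germ cell development, gave 10.64 in wt ESCs and 12.42 in wt day-12 PGCs, 3.43-fold higher. It was well above detection in the ESCs, so its presence alone did not part the samples. The Gcnf-/- arrays gave 9.25 in ESCs and 9.59 on day 12, a difference of 0.35, and wt day-15 PGCs gave 13.24, the highest signal of the 8 arrays. The wt day-12 array was 3.18 log2 units above the Gcnf-/- ESC array.

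Emb did not follow the course of differentiation on these arrays. It gave 6.17 in wt ESCs and 11.06 in wt day-12 PGCs, 29.6-fold higher, but it was below detection in wt day-15 PGCs at 3.85. The 3 Gcnf-/- arrays gave 11.48, 11.54 and 11.72 for ESCs, day 12 and day 15, and the EpiSC arrays 13.15 and 13.17. Against the Gcnf-/- ESC array the wt day-12 array was lower by 0.41. Emb therefore parted the wt ESC and day-15 arrays from the other 6, not ESCs from PGCs. Of the 3 markers given for the day-12 cells, Dppa3 and Dazl were thus higher there than on both ESC arrays, and Emb than on 1 of them.

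**Figure D2:**
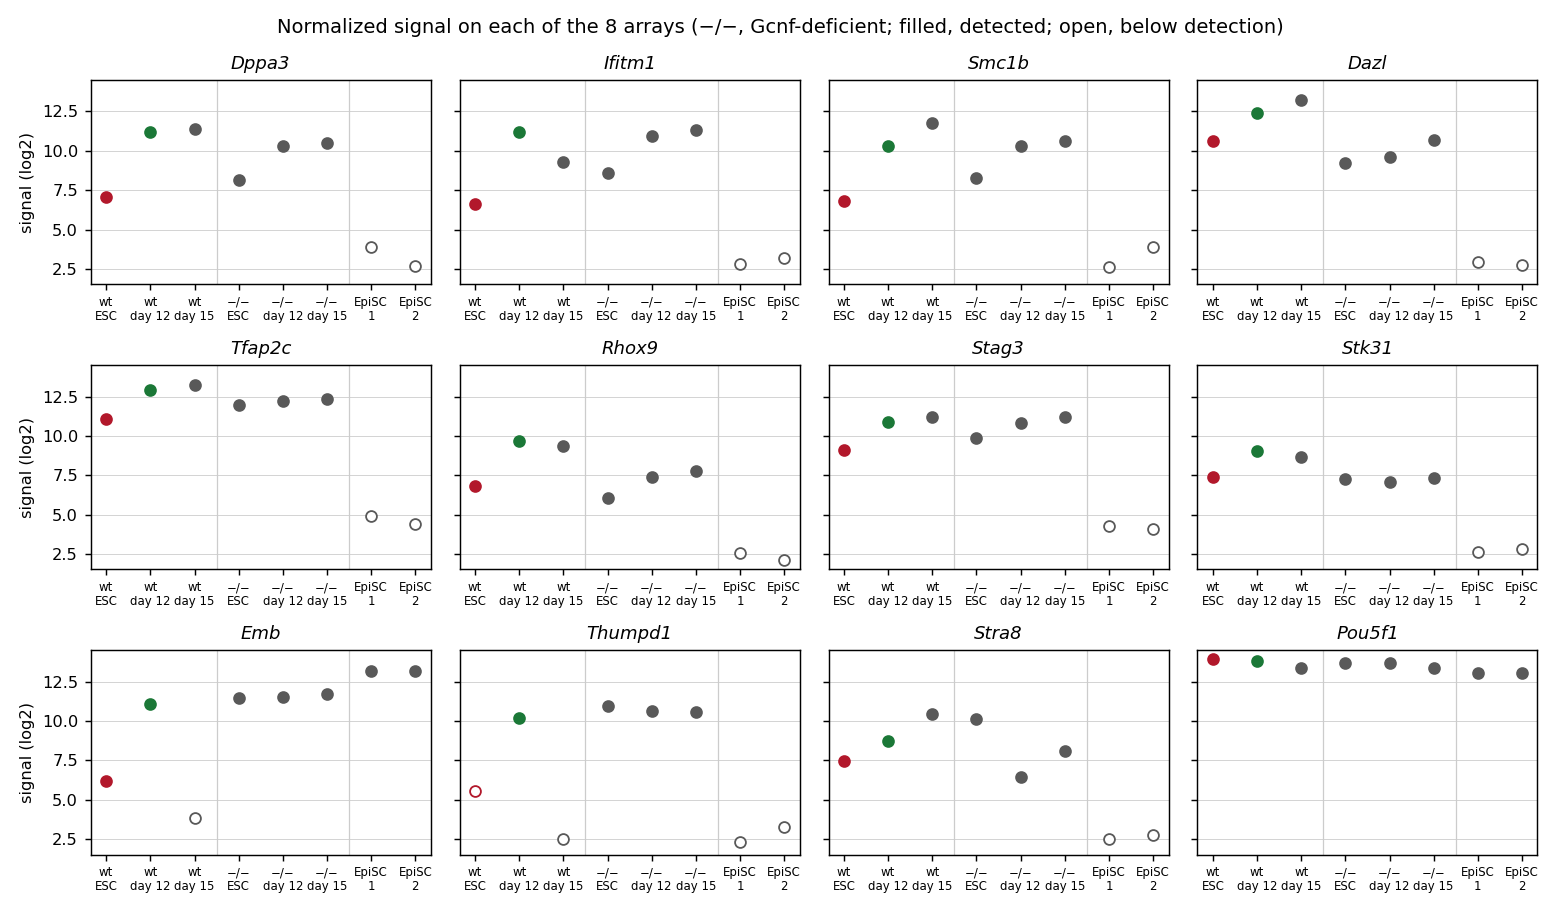
Normalized log2 signal (y axis) of 12 genes on each of the 8 arrays (x axis), red for wt ESCs and green for wt day-12 PGCs; open circles are below detection. Dppa3, Ifitm1 and Smc1b are higher on the 4 PGC arrays than on both ESC arrays, Emb and Thumpd1 are high on the wt day-12 and the 3 Gcnf-/- arrays, and Pou5f1 is level.

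The PGC specification list moved upward as a group. Of its 15 tested genes 8 were over 2-fold higher, 7 by the bound, and 0 over 2-fold lower, and the median difference was 1.14, or 0.99 by the bound, beside -0.02 over all genes. Rhox9, a homeobox gene of the X-linked reproductive cluster, gave 6.82 in ESCs and 9.65 on day 12, 7.15-fold higher. Rhox6, of the same cluster, went from 5.44, below detection, to 7.66, at least 3.7-fold higher. Tfap2c (AP-2 gamma), a factor needed for PGC specification, gave 11.08 and 12.92, a 3.59-fold difference. In the Gcnf-/- pair Tfap2c differed by 0.26 and Rhox9 by 1.36.

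The regulators Prdm1, Prdm14 and Nanos3 were near or below the detection limit. Prdm1 (Blimp1), the repressor that starts PGC specification, was below detection on both arrays. Prdm14, its partner in specification, gave 5.17, below detection, in ESCs and 6.77 on day 12, at least 1.99-fold higher. Nanos3, which protects migrating PGCs from death, gave 6.00 and 7.20, 2.29-fold higher. Dnd1, which guards germ cell messenger RNAs, gave 8.06 and 9.20. Alpl, the alkaline phosphatase long used to stain PGCs, differed by 0.82. Ifitm3 differed by 0.34, Ifitm2 by 0.47 and Lin28a by -0.28, or by -1.20 by the other Lin28a probe. Kit, the receptor carried by migrating PGCs, had no probe with that symbol in the annotation used.

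Among gonadal germ cell genes 6 of 15 tested were over 2-fold higher and 1 over 2-fold lower, or 5 and 0 by the bound, with a median of 0.63. The 5 were Dazl, Tdrd12, a piRNA pathway helicase, at 9.19 and 10.83, Stk31, a germ-cell kinase-like gene, at 7.39 and 9.01, Sohlh2, a germ-cell transcription factor, at 6.40 and 7.56, and Brdt. Brdt, the testis bromodomain gene, was at least 3.68-fold higher, at 5.05, below detection, in ESCs and 7.66 on day 12. Ddx4 (mouse vasa homologue), a helicase of later germ cells, gave 3.37, below detection, and 6.64. Its bound was 1.82-fold, and its other 2 probes were below detection on both arrays.

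Tex13b, an X-linked germ-cell gene, stood at 6.34 in ESCs and 5.27, below detection, on day 12, which bounds it at 1.39-fold lower or more. Tex11, an X-linked meiotic gene, stood at 9.56 and 8.56. Piwil2, Taf7l and Asz1 were lower by 0.14, 0.40 and 0.67 and were detected on both arrays. Mael, Tdrd1, Piwil4, Nanos2 and 5 other members were below detection on both. The wt day-15 array was higher than the day-12 array for Taf7l (9.59 against 7.73), Asz1 (9.67 against 7.63) and Mov10l1 (9.31 against 7.21).

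The meiosis list held 10 tested genes, of which 6 were over 2-fold higher and 0 lower, with a median of 1.17. Smc1b, the cohesin subunit of meiotic chromosomes, gave 6.79 in wt ESCs and 10.28 in wt day-12 PGCs, 11.2-fold higher. The Gcnf-/- arrays gave 8.24 and 10.30 for Smc1b, so both day-12 arrays lay above both ESC arrays. Stag3, another meiotic cohesin subunit, gave 9.09 and 10.91, and 9.87 and 10.84 in the Gcnf-/- pair. Rec8, the meiotic kleisin, gave 6.80 and 8.16, and Syce2, of the synaptonemal complex, 7.93 and 9.30.

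The meiosis median depended on which ESC array was the reference. Against the Gcnf-/- ESC array the median was 0.01, with 3 of 10 genes over 2-fold higher and 1 lower, where 9.97% and 7.44% of all genes passed these limits. Rec8 gave 8.55 and Syce2 10.07 in Gcnf-/- ESCs, above their signals in wt day-12 PGCs. Stra8, the retinoic acid-induced gene that precedes meiotic entry, gave 7.47 in wt ESCs, 8.75 on wt day 12, 10.14 in Gcnf-/- ESCs and 6.43 in Gcnf-/- day-12 PGCs. The genes of meiotic recombination and of the synaptonemal axis were below detection on both wt arrays: Sycp1, Sycp2, Sycp3, Dmc1, Spo11, Hormad1, Msh4 and Msh5 were among 12 such members.

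The start regions of 5 of these germ-cell genes are shown because the E-box CACGTG, the recognition sequence of MYC and MAX family factors, has been tied to the control of germ-cell genes in ESCs. The letters are the 250 bases before the annotated start, 5′ to 3′ on the gene's strand, from RefSeq on build GRCm38.p6, with each match to CACGTG in capitals. CACGTG reads the same on both strands.
Dazl: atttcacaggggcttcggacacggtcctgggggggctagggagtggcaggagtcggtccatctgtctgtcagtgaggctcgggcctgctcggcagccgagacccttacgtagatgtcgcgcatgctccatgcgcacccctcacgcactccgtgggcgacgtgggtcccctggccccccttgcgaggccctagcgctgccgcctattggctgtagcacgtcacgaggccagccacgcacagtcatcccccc
Smc1b: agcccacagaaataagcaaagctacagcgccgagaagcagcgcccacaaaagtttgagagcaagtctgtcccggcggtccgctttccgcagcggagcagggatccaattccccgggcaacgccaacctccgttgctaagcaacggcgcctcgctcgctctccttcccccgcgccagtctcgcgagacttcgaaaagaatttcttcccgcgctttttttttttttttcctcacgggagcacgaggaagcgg
Brdt: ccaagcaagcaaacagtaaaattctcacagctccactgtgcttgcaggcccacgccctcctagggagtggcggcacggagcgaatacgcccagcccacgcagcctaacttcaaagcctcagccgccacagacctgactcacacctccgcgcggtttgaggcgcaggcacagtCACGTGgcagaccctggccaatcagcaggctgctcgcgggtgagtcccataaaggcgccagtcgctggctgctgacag
Stag3: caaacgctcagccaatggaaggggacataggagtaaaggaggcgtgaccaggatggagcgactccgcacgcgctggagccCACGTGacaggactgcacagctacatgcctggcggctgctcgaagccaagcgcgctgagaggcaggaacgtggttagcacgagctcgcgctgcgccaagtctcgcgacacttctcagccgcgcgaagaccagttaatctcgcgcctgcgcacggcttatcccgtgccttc
Stk31: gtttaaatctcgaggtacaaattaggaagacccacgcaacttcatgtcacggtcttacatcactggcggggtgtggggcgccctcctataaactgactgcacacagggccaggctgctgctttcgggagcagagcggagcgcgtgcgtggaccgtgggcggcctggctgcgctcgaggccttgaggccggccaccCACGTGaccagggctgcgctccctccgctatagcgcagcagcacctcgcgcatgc
Their positions are chr17:50293621-50293870 (minus strand) for Dazl, chr15:85131958-85132207 (minus strand) for Smc1b, and, on the plus strand, chr5:107330944-107331193 for Brdt, chr5:138280259-138280508 for Stag3 and chr6:49395289-49395538 for Stk31. Brdt, Stag3 and Stk31 each hold 1 match, which begins 78, 170 and 55 bases before the start. Dazl and Smc1b hold none in this window. Of 27025 genes with such a region 6.05% hold a match. Of the 40 tested genes of the 3 germ-cell lists 31 had a region. Among the 14 of these over 2-fold higher on day 12, 4 held a match (Brdt, Stag3, Stk31 and Ddx4, which is not over 2-fold by its bound), and among the other 17 members 2 did (Mov10l1 and Taf7l). Dppa3, Rhox6, Rhox9 and Tfap2c had no entry in the table. A match describes letters and says nothing about binding.

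Pluripotency genes stood at nearly the same level on both arrays. The day-12 cells were sorted on the Oct4-GFP reporter, so activity of the Oct4 promoter was selected for in them. Pou5f1 (Oct4), the factor behind the reporter, gave 13.92 in wt ESCs and 13.80 in wt day-12 PGCs, and the 8 arrays spanned 13.02 to 13.92. Of 21 tested genes of core and naive pluripotency 3 were over 2-fold higher, a share near the 13.5% of all genes. The list had 0 over 2-fold lower, where 10.9% of all genes were, and a median of 0.21. Nanog, which holds ESCs in self-renewal, gave 13.19 and 14.29, 2.15-fold higher. Tcl1, a cofactor of AKT kinases, gave 10.35 and 12.26. Esrrb, Klf4, Dppa4 and Zfp42 (Rex1) differed by -0.20, 0.21, 0.04 and -0.62.

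Sox2, the partner of Oct4, gave 9.26 and 11.53 by its brightest probe, 4.82-fold higher, and 0.48 by its other tested probe. That brightest probe gave 10.69 in Gcnf-/- ESCs, so the wt ESC signal was the lower of the ESC arrays. Of 13 tested genes downstream of LIF and STAT3, 2 were over 2-fold higher, a share near the 13.5% of all genes, and 4 were over 2-fold lower, where 10.9% of all genes were. Socs3, the feedback inhibitor of STAT3 signalling, gave 11.26 with LIF in ESCs and 9.91 on day 12, and Gbx2, a STAT3 target that sustains self-renewal, gave 11.59 and 9.84. The Gcnf-/- pair had the same sign for both, at -1.74 for Socs3 and -2.01 for Gbx2.

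Genes of the primed epiblast, the pluripotent tissue from which PGCs arise, were higher on the day-12 array. Of 11 tested genes 7 were over 2-fold higher, 4 over 4-fold, and 0 over 2-fold lower, with a median of 1.78. By the bound 6 were over 2-fold and 2 over 4-fold higher, with a median of 1.11. Fgf5, the classical epiblast marker, gave 3.56, below detection, in ESCs and 6.89 on day 12, at least 2.16-fold higher. It was below detection in wt day-15 PGCs at 2.45 and in Gcnf-/- day-12 PGCs at 4.42. Otx2, a transcription factor of the forming epiblast, gave 8.46 and 11.47, 8.03-fold higher. The Gcnf-/- ESC array already gave 11.70 for Otx2. Pou3f1 (Oct6) gave 7.21 and 8.60, and Zic2 6.83 and 8.61. The median against the Gcnf-/- ESC array was 1.31, or 0.43 by the bound, with 6 genes over 2-fold higher (4 by the bound) and 2 lower. With the wt day-15 array in place of day 12 the median was -0.08.

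Of 15 tested genes of the Nodal, activin and BMP pathways 7 were over 2-fold higher and 4 (3 by the bound) over 2-fold lower, with a median of 0.55. Over all genes 13.5% were higher and 10.9% lower by that limit. Lefty1 and Lefty2, secreted inhibitors of Nodal, gave 8.67 and 12.02, and 9.91 and 12.12, 10.1-fold and 4.64-fold higher. Nodal itself gave 9.30 and 10.72, and Tdgf1 (Cripto), its co-receptor, 8.49 and 10.44. Tdgf1 was one of the genes that were high on the Gcnf-/- arrays, at 11.73 in Gcnf-/- ESCs. Bmp4, the signal that induces PGCs in the embryo, was lower, at 10.79 in wt ESCs and 7.61 in wt day-12 PGCs, 9.08-fold. Bmp4 was also lower in the Gcnf-/- pair, at 9.56 and 7.22. Inhbb, a subunit of activin B, was 5.99-fold lower, at 9.32 and 6.74. Of the BMP target genes, Id1 differed by -1.68, Id3 by 0.55, and Id2 was at least 4.73-fold higher.

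Markers of other lineages were mostly below detection on both arrays. Of 22 mesoderm genes with a probe 7 were tested, of 16 neuroectoderm genes 3, and of 14 endothelial and blood genes 5. Of 24 endoderm and basement membrane genes 11 were tested. Of these 4 were over 2-fold higher and 2 over 2-fold lower, or 3 and 1 by the bound. Genes below detection in both samples included Mesp1, Tbx6, Pax6, Sox1, Cdh5, Hbb-bh1, Gata4, Sox17 and Afp. The endoderm factor Gata6 was detected on both arrays. Gsc, a homeobox gene of the streak organiser, was at least 3.14-fold higher, at 5.29, below detection, and 7.42. Simple keratins were higher: Krt8 gave 8.04 and 10.80, Krt18 gave 5.79 and 8.36, and Krt7 gave 5.53, below detection, and 7.44. In the Gcnf-/- pair Krt8 gave 6.94 and 10.28 and Krt18 gave 5.13, below detection, and 8.98. The trophoblast and simple keratin list had a median of 1.81 over 7 tested genes, 2.51 against the Gcnf-/- ESC array and 2.20 in the Gcnf-/- pair. By the bound these medians were 0.87, 1.14 and 1.05, and 3 of the 7 genes, against 5 by the signals, were over 2-fold higher in the wt pair. Cdx2 and Elf5, which define trophoblast, were below detection on both arrays. Ttr, a liver and yolk sac carrier protein gene, gave 2.54, below detection, and 6.46, and Lamb1, a basement membrane laminin gene, 4.97, below detection, and 7.26.

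Immediate early genes, which cells switch on within minutes of a stimulus, were high on the day-12 array. Fos gave 6.45 in wt ESCs and 11.78 in wt day-12 PGCs, 40.3-fold higher. Its signal varied across the other arrays, at 8.33 in wt day-15 PGCs and 9.59, 10.13 and 12.05 in Gcnf-/- ESCs, day 12 and day 15. In each genotype both PGC arrays lay above the ESC array, but wt day-15 PGCs lay below Gcnf-/- ESCs. Egr1 gave 10.12 and 13.07, 7.74-fold higher, and 9.48 in wt day-15 PGCs. Klf6 gave 8.18 and 10.33, and Dusp1, a phosphatase of the same response, 10.62 and 12.33. Of 9 tested members 7 were over 2-fold higher and 2 over 2-fold lower (Junb and Myc), with a median of 2.16. By the bound 5 were higher and 1 (Junb) lower, with a median of 1.41. In the Gcnf-/- pair 1 of 6 tested members was over 2-fold higher, where 7.8% of all genes were.

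Genes of glycolysis and the hypoxia response made the next group. Aldoc, a glycolytic aldolase, gave 6.05 in wt ESCs and 10.20 in wt day-12 PGCs, 17.7-fold higher. Ddit4, a stress- and hypoxia-induced inhibitor of mTOR, gave 8.04 and 11.85, 14.0-fold higher. Pygl, the glycogen phosphorylase of liver, was at least 10.6-fold higher, and Pgm1, a phosphoglucomutase, 10.2-fold. Pfkl, a phosphofructokinase, gave 10.65 and 13.18, and Slc2a1 (Glut1), the main glucose carrier, 11.68 and 13.90. Of 18 tested list members 8 were over 2-fold higher and 0 lower, with a median of 0.88.

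These differences also depended on which ESC array was the reference. The Gcnf-/- ESC array gave 10.51 for Aldoc, 12.62 for Ddit4, 11.48 for Pgm1, 12.93 for Pfkl and 13.74 for Slc2a1, each within 1 log2 unit of wt day-12 PGCs. Against that array the list median was -0.08, with 1 gene over 2-fold higher and 1 lower. The summed level of the 21 list genes with a probe was 101967 in wt ESCs and 147685 to 216865 on the other 5 ESC and PGC arrays. The EpiSC arrays gave 121546 and 123725, nearer to wt ESCs. What set the wt ESC array apart from the other ESC and PGC arrays for these genes was not tested.

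The lower genes were led by those of fibroblasts and their matrix. Of 25 tested fibroblast genes 22 were over 2-fold lower and 20 over 4-fold lower in wt day-12 PGCs, 1 (Ccn2) was over 2-fold higher, and the median was -3.90, or -2.76 by the bound, with 19 over 2-fold and 17 over 4-fold lower. Bgn (biglycan), a matrix proteoglycan, gave 12.19 in wt ESCs and 6.01 in wt day-12 PGCs, 72.4-fold lower. Acta2, smooth muscle actin, gave 13.15 and 8.43, 26.3-fold lower. Lox, which cross-links collagen, gave 11.43 and 3.64, below detection, at least 47.2-fold lower, and Col1a1, a chain of type I collagen, 10.52 and 3.31, at least 25.2-fold lower. Vim (vimentin), a filament protein of mesenchymal cells, gave 11.39 and 7.84, 11.8-fold lower.

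The level of these genes in ESCs depended on the array. The Gcnf-/- ESC array gave 9.16 for Bgn, 8.71 for Acta2, 7.74 for Lox, 6.49 for Col1a1 and 10.42 for Vim. Of the 30 fibroblast genes with a probe 25 were detected in wt ESCs, 17 in Gcnf-/- ESCs and 11 in wt day-12 PGCs. Their summed level was 42154 on the wt ESC array, 11216 on the wt day-12 array and 6855 to 20212 on the other 6 arrays. Against the Gcnf-/- ESC array the list median was -0.41, with 7 of 17 genes over 2-fold lower and 3 over 2-fold higher. Of all genes 7.44% were lower and 9.97% higher by that limit. By the bound the list median was -0.28, with 4 lower and 3 higher, where 4.68% and 7.40% of all genes were. The defining collagens Col1a1, Col1a2 and Col3a1, and Lum and Lox, were below detection in wt day-12 PGCs. The ESCs were grown on fibroblast feeders and the PGCs were not. In such a bulk sample fewer cells of a type and less RNA per cell cannot be told apart, and the part of feeder RNA in the lower genes was not tested.

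**Figure D3:**
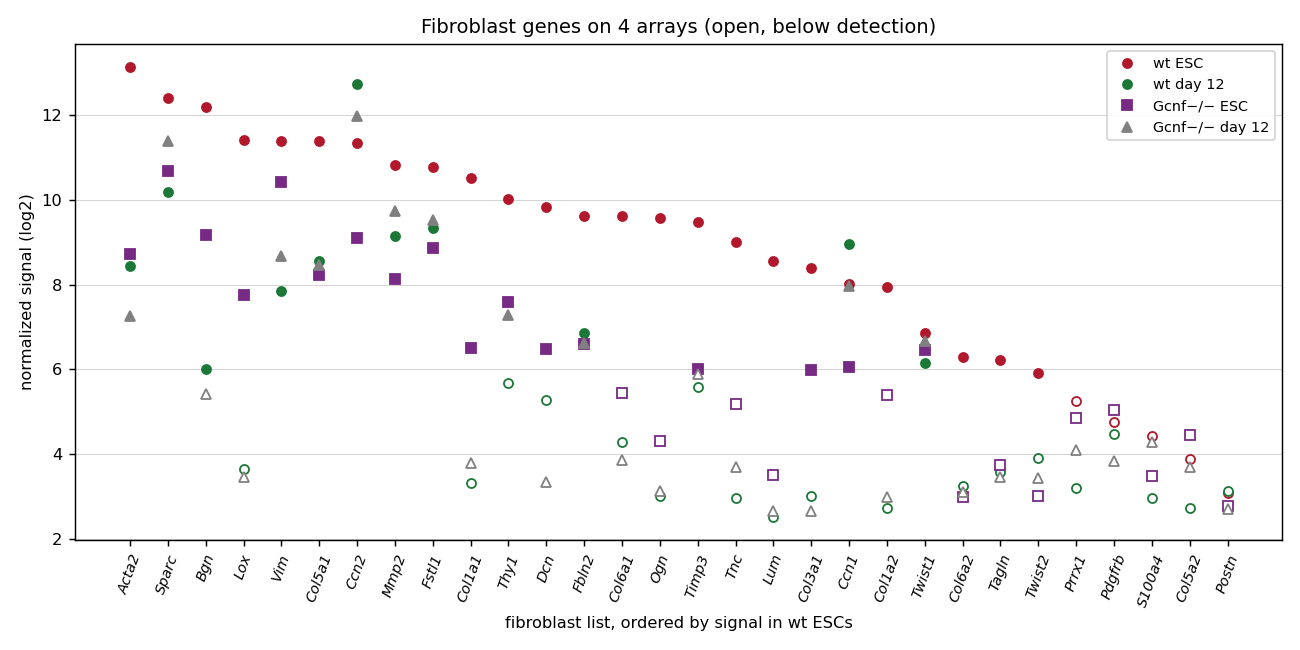
Normalized log2 signal (y axis) of the 30 fibroblast genes with a probe (x axis) on the wt and Gcnf-/- ESC and day-12 arrays; open symbols are below detection. The wt ESC array (red) is the highest of the 4 for Acta2, Bgn, Lox, Vim and Col1a1, and Ccn2 is higher on day 12 in both genotypes.

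For 95 probes the wt ESC signal lay over 4-fold above all 7 other arrays, 48 by the bound. Such probes are lower in the comparison by construction, and they made up 30.2% of the 315. Beside Ogn, Lum, Actg2 and Itga11, genes of matrix, smooth muscle and cell adhesion, they took in Ifit3, Ccl7 and Lyz1, genes of the innate immune response. In the other direction 16 probes lay over 4-fold below all other arrays in wt ESCs. The wt day-12 array stood over 4-fold above all others for 8 probes, 5 by the bound, and below them for 2.

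Interferon genes and genes of antigen presentation were lower as well. Of 9 tested 5 (4 by the bound) were over 2-fold lower and 0 higher, with a median of -1.76, or -0.87 by the bound. Ifit3, an interferon-induced antiviral gene, gave 10.06 in wt ESCs and 3.75, below detection, in wt day-12 PGCs, at least 18.4-fold lower. Isg15, a ubiquitin-like antiviral protein gene, gave 9.67 and 6.96, and B2m, the light chain of MHC class I, 11.16 and 9.14. The Gcnf-/- ESC array gave 5.55 for Ifit3, below detection, 7.74 for Isg15 and 9.28 for B2m. The list median against it was -0.40, or -0.23 by the bound. The wt ESC array, high for fibroblast genes, was thus also above the Gcnf-/- ESC array for Ifit3, Isg15 and B2m. Ifit2 went the same way, at 6.73 and 3.61, the latter below detection. Usp18, Oasl2 and Irf9 were closer, at 9.76, 9.32 and 9.15 in wt ESCs and 9.66, 9.46 and 8.88 in Gcnf-/- ESCs.

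With the Gcnf-/- ESC array as the reference in place of wt ESCs, 282 probes were higher (2.51%) and 170 lower (1.52%) over 4-fold, and 9.29% and 8.58% passed the 2-fold limit. Over the 11264 probes of the wt comparison the wt ESC array was over 4-fold below the Gcnf-/- ESC array for 175 (1.55%) and above it for 336 (2.98%). The reference contrast shares the wt day-12 array with the wt comparison, so shared calls are not counted here. It also differs in genotype, and genotype and ESC culture cannot be told apart in it.

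**Figure D4:**
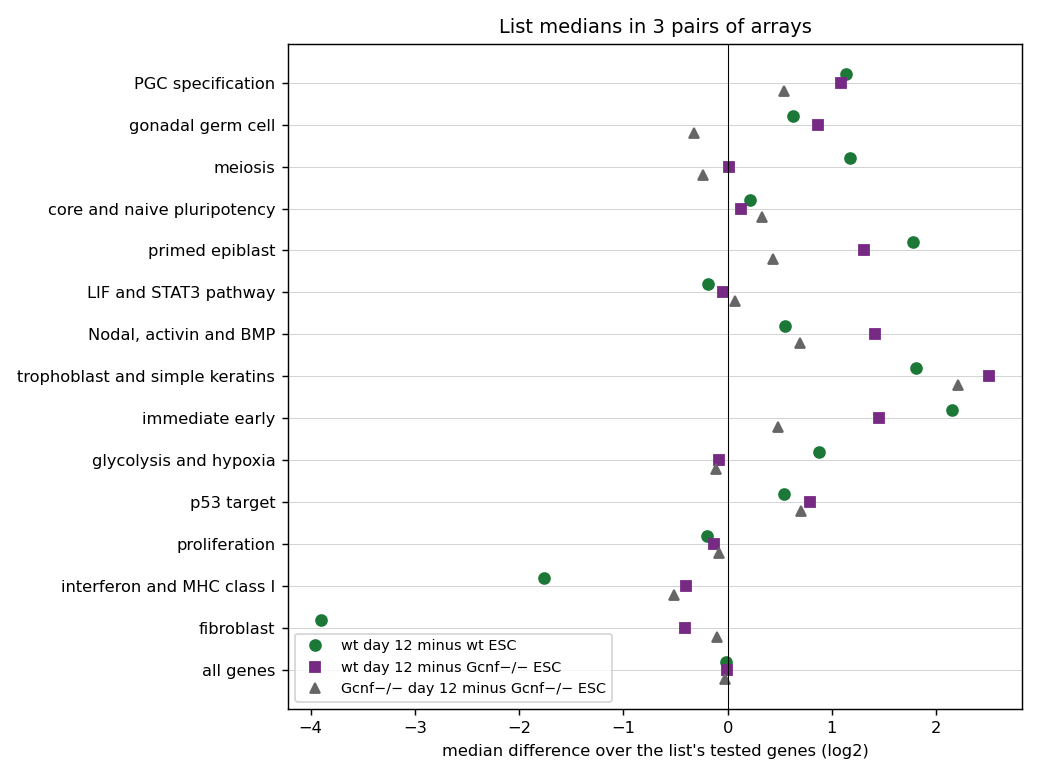
Median log2 difference (x axis) over the tested genes of 14 lists and of all genes (y axis) in 3 pairs of arrays. Fibroblast and interferon genes are at -3.90 and -1.76 against the wt ESC array (green) and at -0.41 and -0.40 against the Gcnf-/- ESC array (purple). In the latter pair 7 of 17 tested fibroblast genes were still over 2-fold lower, where 7.44% of all genes were. Meiosis and glycolysis are at 1.17 and 0.88 (green) and at 0.01 and -0.08 (purple), whereas PGC specification is at 1.14 and 1.09.

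The Gcnf-/- day-12 and ESC arrays covered the same step with no array in common. There 198 probes (1.78%) were over 4-fold higher and 132 (1.19%) over 4-fold lower, fewer than in the wt pair, and 7.23% and 6.9% passed the 2-fold limit. Of the 371 probes higher in wt, 317 were tested in the Gcnf-/- pair. Of these 45.1% were over 2-fold higher and 21.1% over 4-fold higher, where 6.54% and 1.51% of all probes tested in both pairs were. Of the 315 lower probes 143 were tested in the Gcnf-/- pair, and 49.7% of these were over 2-fold lower and 23.1% over 4-fold lower, against 5.88% and 0.831% of all. Across 10464 probes, which share the arrays' probe effects and are not independent, the differences of the pairs had a Pearson correlation of 0.479 and a Spearman correlation of 0.428.

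Genes that parted both day-12 arrays from both ESC arrays were fewer. With both day-12 signals detected and over 4-fold above both ESC signals, 47 probes met the limit, and in the lower direction 15 did. All of these pass 4-fold in the wt pair by construction. By the bound 9 probes were higher and 5 lower. The genes named here were chosen after their values were seen. Pdzk1, a scaffold protein of membrane transporters, gave 2.90 and 5.27, both below detection, in wt and Gcnf-/- ESCs and 10.42 and 8.94 on day 12, so that the arrays were at least 8.94-fold apart. The other 8 were Dppa3, Ifitm1, Smc1b, Krt8, Krt18, Sox21, Eps8l2 and, by a dimmer probe, Gstm2. Sox21, a transcription factor of the Sox family, gave 6.14 and 6.41 against 8.77 and 8.50. Eps8l2, a regulator of the actin skeleton, gave 4.24, below detection, and 6.13 against 8.36 and 8.46.

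On the lower side the 5 by the bound were Bgn, Mgp, Serpinf1, Spry4 and Usp18. Usp18, an interferon-induced protease gene, passed by a dimmer probe, at 9.36 and 8.98 in wt and Gcnf-/- ESCs and 6.52 and 6.41 on day 12. Spry4, a feedback inhibitor of receptor tyrosine kinase signalling, gave 8.65 and 8.38 in wt and Gcnf-/- ESCs and 6.17 and 5.72, the latter below detection, on day 12. For both genes the ESC arrays lay within 0.5 log2 units of each other.

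Some probes set wt day-12 PGCs with the Gcnf-/- arrays and apart from the other wt arrays. For 4 genes wt day 12 and the 3 Gcnf-/- arrays lay over 4-fold above wt ESCs and also above wt day 15. These were Emb, with a gap of 4.89, Thumpd1 with at least 4.41, Ppp1r14a with at least 2.39 and, by a dimmer probe, Tdgf1 with 2.33. Thumpd1, an RNA modification cofactor gene, gave 5.55, below detection, in wt ESCs and 10.19 on wt day 12, then 2.53, below detection, on wt day 15, and 10.95, 10.61 and 10.55 on the Gcnf-/- arrays. Ppp1r14a, a phosphatase inhibitor gene, gave 5.23, below detection, and 8.30 in wt ESCs and on wt day 12, and 5.19, below detection, on wt day 15. Tmem45a2 did the reverse, at 7.10 in wt ESCs, at 7.09 on wt day 15, and at 3.09 and below, under the detection limit, on the other 4 of these arrays, a gap of at least 2.27-fold.

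The Y chromosome parted the samples. Eif2s3y, a Y-linked translation factor gene expressed in male cells of many tissues, gave 11.64 in wt day-12 PGCs and 4.68, below detection, in wt ESCs, at least 58.4-fold higher, and was below detection on the other 6 arrays at 2.35 to 3.04. The Y-linked genes Uty (6.53), Zfy1 (6.08) and Sly (5.99) were detected on the day-12 array, close to its detection limit. Uty was also detected on the Gcnf-/- ESC array at 5.79, near that array's lowest detected signal of 5.70. The methods name the Gcnf-/- ESCs as female. On each of the wt day-15, Gcnf-/- day-15 and first EpiSC arrays 1 of 7 Y-linked list genes was detected. Kdm5d, Sry, Zfy2 and Usp9y were below detection on the wt ESC and wt day-12 arrays. Xist, the RNA of the inactive X chromosome, was below detection on both arrays, and the median over 257 X-linked genes was -0.003. The Y-linked signals of the wt day-12 array thus differ from those of the wt ESC array.

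Chromosome 8 was lower as a whole on the day-12 array. The median of its 429 tested genes was -0.47, and 73.7% of them were below 0, whereas the other 18 autosomes had medians of -0.09 to 0.14 and 44.7% to 53.3% below 0. In 10 consecutive groups of 42 or 43 genes along chromosome 8 the medians ran from -0.31 to -0.62. The wt day-12 array had a chromosome 8 median of -0.45 against Gcnf-/- day-12 PGCs, with 84.5% of genes below 0, and -0.38 against Gcnf-/- ESCs. Wt day-15 PGCs were above wt day-12 PGCs by 0.53 on chromosome 8 and above wt ESCs by 0.13, and the Gcnf-/- pair differed by 0.06. The shift was thus found with each array the day-12 array was set against. Chromosome 8 held 5.12% of the tested probes, 7.62% of the probes over 4-fold lower and 2.97% of those over 4-fold higher. Whether the day-12 array came from another ESC line than the wt ESC array was not tested. For any gene of the comparison, on these chromosomes or others, line and differentiation cannot be told apart.

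**Figure D5:**
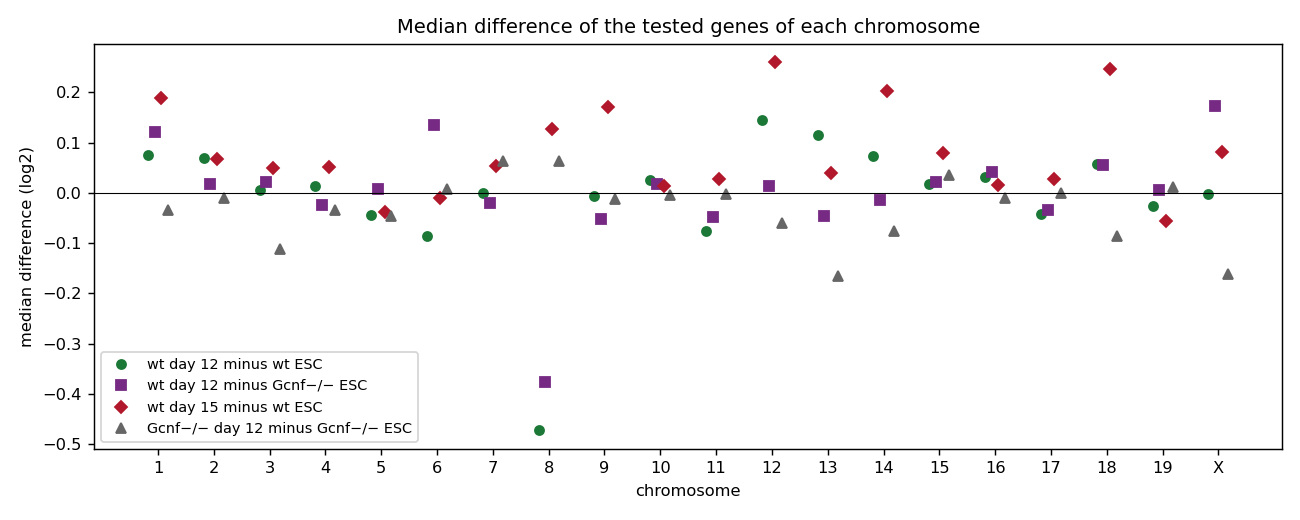
Median log2 difference (y axis) of the tested genes of each autosome and the X chromosome (x axis) in 4 pairs of arrays. Both pairs that hold the wt day-12 array are low at chromosome 8, at -0.47 and -0.38, and both pairs without it are at 0.13 and 0.06.

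Outside the sex chromosomes the genes for which the wt day-12 array stood over 4-fold above all 7 others by the bound were Sp5, Slc4a3 and Zfp987. Sp5, a WNT target, gave 7.38 in wt ESCs, 10.03 on wt day 12 and 4.35, below detection, on wt day 15. Slc4a3, an anion exchanger, gave 8.38, 11.14 and 8.52 on the same arrays. Zic1, a zinc finger factor of the neural plate, gave 3.98, below detection, and 6.65, at least 1.83-fold higher. Other named genes with large differences were Aire, the transcription factor of thymic self-tolerance that germ cells also express, at least 28.4-fold higher, and Sct (secretin), at least 17.7-fold. Aire gave 10.11 in Gcnf-/- ESCs, near its 10.60 in wt day-12 PGCs. Mgp, a matrix protein that blocks calcification, was at least 44.1-fold lower, at 11.33 and 2.96, and Igfbp7, a secreted growth factor binding protein, 18.2-fold lower, at 11.16 and 6.97.

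Processes shared by proliferating cells differed less. Of 17 tested proliferation genes 1 was over 2-fold higher (Ccna2) and 1 over 2-fold lower, where 13.5% and 10.9% of all genes were. The median of the list was -0.20. Ccne1, cyclin E1, was the lower gene, at 10.93 and 9.17, and gave 10.02 and 8.33 in the Gcnf-/- pair. Genes of cholesterol synthesis had a median of -0.35 over 14 genes, with 1 over 2-fold higher and 0 lower. In the Gcnf-/- pair 9 of the 14 cholesterol genes were over 2-fold lower, where 6.22% of all genes were. Among p53 targets 4 of 14 were over 2-fold higher and 1 lower (Fas), beside 13.5% and 10.9% of all genes. Of the higher ones Bbc3 (Puma), a promoter of cell death, gave 8.79 and 10.53.

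Of the genes of DNA methylation 0 of 9 tested were over 2-fold higher and 1 over 2-fold lower (Tdg, at -1.04). The share of lower genes was near the 10.9% of all genes, and 13.5% of all genes were higher. Dnmt3b gave 12.94 and 12.87 and Dnmt1 gave 11.24 and 11.29. Among imprinted genes, whose marks are erased in PGCs of the embryo, 1 of 12 tested was over 2-fold higher and 0 lower by the brightest probe. These counts stand beside 13.5% and 10.9% of all genes. The higher gene was Cdkn1c, an inhibitor of the cell cycle, at 7.79 and 10.18, and it gave 7.22 and 9.48 in the Gcnf-/- pair. By dimmer probes detected on both arrays Mest differed by -1.20 and -1.59, Snrpn by -1.63 and Gnas by 1.00. The brightest probes of these genes gave -0.69, -0.57 and 0.35. Gcnf (Nr6a1) gave 9.64 in wt ESCs and 10.38 in wt day-12 PGCs. In the Gcnf-/- pair its probe gave 11.03 and 9.94. The sources used here do not say whether the deletion removes the probe's target, so the probe does not check the genotype.

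Probes of the same gene did not always move together. Of 2035 genes with at least 2 tested probes, 153 had a probe over 4-fold apart, and in 18 of these another probe had the opposite sign. In the housekeeping gene Rplp0 the probes ran from -0.39 to 2.27, in Shcbp1 from -0.74 to 2.77, in Jam2 from -1.73 to 2.28 and in H2-T23 from -2.63 to 1.30.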

How the data were processed

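The wt ESC and wt day-12 arrays were compared, and the other 6 arrays were shown beside them. The authors extracted bead data in BeadStudio 3.2 and deposited 1 table of signal intensities and detection p-values without normalization. A further deposited table of log2 values, which the authors corrected by RMA background and quantile-normalized in lumi, was used as an alternative. From the intensities, the RMA background model, log2 and quantile normalization over the 8 arrays were repeated with R 4.3.3 and limma 3.58.1, and counted with Python 3.11.15. Over the tested probes the re-normalized difference correlated with that of the authors' table at 0.996.

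Symbols came from the platform annotation, updated through gene identifiers: 23978 probes had 1 symbol, and 1719 without a single symbol were counted but not named. The probe with the highest mean signal stood for a gene. The normalization was tested on simulated data in which only bright, detected probes were changed. That test does not cover signals near or below detection. Gene lists (27) were written from general knowledge, and the members, lists and tests were chosen with earlier results of these data known. Named genes were the 3 markers and those the study names, the 10 largest differences and bounds in each direction, list members over 4-fold apart with up to 4 examples a list, Y-linked and X inactivation genes, genes for which 1 of the 2 arrays stood apart, and genes whose genotypes or probes disagreed. Precision is limited by 1 array per condition, and whether any arrays came from separate cultures is not given. Alternatives covered values, background, normalization, detection filter, fold limit, probe choice and either array replaced.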

Additional observations from a re-analysis of the deposited data

Results flagged for a closer look

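Differences with opposite signs in the genotypes were found for Nfix and Stra8, among the genes named. The signals of Nfix, a nuclear factor I gene on chromosome 8, differed by -2.18 in wt and by 2.03 in the Gcnf-/- pair, but the dim side of each pair was below detection. By the bounds it was at least 3.3-fold lower in wt and at least 1.52-fold higher in the Gcnf-/- pair, so the latter is not shown to pass 2-fold. Stra8, detected on these 4 arrays, differed by 1.27 in wt and by -3.71 in the Gcnf-/- pair. Without background correction the wt differences were -0.92 for Nfix and 0.87 for Stra8, both under 2-fold. With 1 array per condition the difference between genotypes was not tested.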

How the results depend on the processing

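The 371 higher and 315 lower probes became 50 and 47 without background correction, 94 and 95 with an offset of 50, 194 and 165 with neqc, 120 and 66 among probes detected on both arrays, 1476 and 1346 at the 2-fold limit, and 614 and 502 with the wt day-15 array. Against the Gcnf-/- ESC array 282 were higher and 170 lower. Under the authors' table, median scaling, fewer arrays in the normalization, the other filters, 1 probe per gene, and without chromosome 8 and Y probes (chosen after seeing the data) both counts stayed within 1.5 times. Median scaling moved the median of all tested probes from -0.05 to -0.15.

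Medians of lists kept their sign under every alternative that used both arrays, for the 9 lists named next. PGC specification was 0.69 without background correction, 0.79 with the offset, 0.82 detected on both and 1.44 with day 15. Gonadal germ cell was 0.31 without background correction, 0.20 without the filter and 1.46 with day 15. Meiosis was 0.67, 0.90, 0.39 without the filter and 0.014 against Gcnf-/- ESCs. Primed epiblast was 0.91, 1.15, 1.44 with neqc, 0.74 without the filter, 1.31 against Gcnf-/- ESCs and -0.085 with day 15. Fibroblast was -2.20, -2.74, -3.47, -2.94, -2.23 detected on both, -0.41 against Gcnf-/- ESCs and -4.42 with day 15. Immediate early was 1.06, 1.24, 1.52, 1.88 in the authors' table, 1.02 without the filter, 1.45 against Gcnf-/- ESCs and 0.31 with day 15. Glycolysis and hypoxia was -0.079 against Gcnf-/- ESCs and 1.82 with day 15. Interferon was -0.86, -1.37, -1.08 without the filter, -0.67 detected on both, -1.22 at a detection p under 0.05, -0.40 against Gcnf-/- ESCs, -2.12 with day 15 and -2.02 by the median of a gene's probes. Where a setting is not named, the order is no background, offset, neqc, no filter. Core pluripotency moved by less than the EpiSC spread. The trophoblast and simple keratin median (1.81) was 0.51, 0.87, 1.28 with neqc, 1.28 without the filter and 0.82 with day 15. The chromosome 8 median stayed between -0.63 and -0.25 with these arrays and was 0.13 with day 15.

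Against the Gcnf-/- ESC array the sign turned for Emb (-0.41), Otx2 (-0.23), Aldoc (-0.31), Ddit4 (-0.77), Thumpd1 (-0.76), Stra8 (-1.39) and Tdgf1 (-1.29). With day 15 it turned for Emb (-2.32), Egr1 (-0.63) and Tdgf1 (-1.31). The cause was not tested. No paired analysis was possible because each condition of the comparison has 1 array, so that its groups share fewer than 2 replicate numbers, and for the same reason no array could be left out. Signals near background limit the dim genes most.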

Other observations

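Genes of 3 further groups were tested in a minority of their members. Of the retinoic acid response genes 6 of 13 with a probe were tested, with a median of -0.28, and Meis2, a homeobox gene induced by retinoic acid, gave 8.58 in wt ESCs and 9.82 in wt day-12 PGCs, while Cyp26a1 and Rarb were below detection on both arrays. Of the 2-cell-like genes 4 of 9 were tested, with Zscan4c at 11.94 and 10.93 and Tcstv3 at 8.93 and 10.06. Of the endoderm and basement membrane genes 11 of 24 were tested, with 4 over 2-fold higher and 2 over 2-fold lower (3 and 1 with signals below detection at their bounds), and Gata6, an endoderm factor, gave 7.16 and 8.21 beside Trf (transferrin) at 8.20 and 6.01.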
